A study of Rattus norvegicus with 32 samples.

Results

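The genes of the proteasome were followed in rat liver after ozone inhalation. They were taken as all genes whose array symbol begins with Psm, a letter from a to g and a number. Psmb8, Psmb9 and Psmb10, which encode the catalytic subunits of the immunoproteasome, were left out, and each gene was read from its brightest probe set among those annotated to that gene alone. This gave 41 genes of 11626 tested, and all 41 passed the filter on low values. The genes fell into 7 subunits of the core's alpha ring, 6 of its beta ring, 6 ATPases and 11 other subunits of the regulatory particle, 6 assembly chaperones, 3 activators or regulators and 2 partner genes. The partners, Psmc3ip and Psme3ip1, carry names that fit the rule but encode proteins named for binding a proteasome protein, not subunits of the particle. Psmb6, Psme2, Psme3 and Psmg3 had only probe sets annotated to several genes and were not measured here.

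The animals were male Wistar Kyoto rats, 10 weeks old and weighing 250 to 300 g, which breathed either ozone at 1 ppm or filtered air for 6 hours a day. The first exposure's end (day 1) gave 6 ozone and 6 air liver samples, the end of the second daily exposure (day 2) gave 5 and 5, and a harvest 18 hours after the second exposure had ended (18 h) gave 5 and 5. Each of the 32 samples was total liver RNA on 1 Affymetrix rat array, and the unit is the probe set intensity that the authors deposited. The labels number the replicates without saying that each number is a different animal, so p-values measure the spread between these samples, which may be partly technical. In whole liver RNA, fewer cells of a type and less RNA per cell cannot be told apart.

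The proteasome degrades proteins that carry ubiquitin chains. Its barrel-shaped core has outer rings of alpha subunits, which gate the entrance, and inner rings of beta subunits, of which Psmb5, Psmb6 and Psmb7 encode the catalytic ones. A regulatory particle sits on the barrel: a ring of ATPases (Psmc genes) unfolds the substrate, and the other subunits (most Psmd genes) bind ubiquitin chains or remove them. Dedicated chaperones, among them the products of Psmd5, Psmd9 and Psmd10, hold the ATPases while the base of the regulatory particle is built and are absent from the finished particle. In mammalian cells the transcription factor NFE2L1 drives proteasome genes together when proteasomes are inhibited, and NFE2L2 can raise some of them under oxidative stress.

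Mean intensities of the 41 genes over the 32 arrays lay between 144 for Psmc3ip and 2235 for Psme1. The next brightest were Psmb2 (2099), Psmb4 (2070.0) and Psma6 (2068), and the next dimmest Psme3ip1 (261) and Psmd10 (290.1). Intensities of different probe sets depend on their probes, so these values rank signal and not transcript number. Probes for nonspecific binding had array medians of 54.3 to 92.0, so some background lies under every value. Replicate 2 of day 1 air (54.3) and replicate 3 of day 1 ozone (66.1) were lowest, and every other array read 85.2 or more. The part of these arrays' background in the day 1 results was not tested. The median intensity of an array lay between 147 and 161, and correlations between arrays between 0.965 and 0.997. Psmc3ip read 136 to 152, at about that median. Whether a gene was detected was not tested, so expression of Psmc3ip in these livers is not shown. The label of the tissue was checked against 7 hepatocyte markers, led by Alb with 12830.3 to 13347 on the 32 arrays, and none of them passed the test between ozone and air at any time. Of 9 Kupffer cell and macrophage markers measured, 2 were lower in ozone livers on day 1. Their summed intensity ranged from 4566 to 7297 in ozone livers and from 5783 to 7058 in air livers, and their part in the day 1 results was not tested. Also lower on day 1 were 1 of 6 stellate cell, 1 of 4 endothelial and 1 of 3 cholangiocyte markers tested, and higher was 1 of 3 neutrophil and monocyte markers. None of 6 lymphocyte and 2 erythroid markers passed. Of all genes tested, 13.1% were higher and 16.4% lower on day 1. The ratio of 3′ to 5′ actin signal, a measure of RNA integrity, ranged from 2.30 to 2.76 in day 1 ozone arrays and from 2.45 to 2.84 in day 1 air arrays. Over all 32 arrays it ranged from 2.16 (replicate 3 of 18 h air) to 3.50 (replicate 5 of 18 h ozone).

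Some arrays stood away from their own group. Over the genes outside the proteasome, each array was correlated with the 6 group means after centring, with the array itself left out of its group. Replicate 5 of day 2 air correlated with the day 2 ozone mean at 0.65 and with its own group's mean at -0.48. Replicate 5 of day 2 ozone correlated with the 18 h ozone mean at 0.67 and with its own group's mean at -0.27. Replicate 1 of 18 h air lay nearest to the 18 h ozone mean (0.70, beside 0.26 for its own) and replicate 5 of 18 h air nearest to the day 1 air mean (0.63, beside 0.12). Replicate 1 of day 2 air also lay nearest to the day 1 air mean (0.68, beside 0.02). In all, 7 of the 32 arrays lay nearer to another group, 2 of them nearer to a group of the opposite exposure, and no ozone array of day 1 was among the 7. Among them were replicate 5 of day 1 air, nearest to the day 2 air mean (0.63, beside 0.52 for its own), and replicate 2 of day 2 air. The latter lay nearest to the day 1 air mean (0.64, beside 0.36). All arrays were kept in the reported fit. Results that rest on replicate 5 of day 2 air, day 2 ozone or 18 h air are given with and without those arrays.

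On day 1, ozone was accompanied by changes in single proteasome genes that ran in both directions. Of the 41 genes, 12 passed the test (limma, adjusted p below 0.05), which is 29.3%, beside 29.5% of all genes tested. In each direction the share lay near that of all genes. In ozone livers 5 genes were higher, 12.2% of the 41 beside 13.1% of all genes, and 7 were lower, 17.1% beside 16.4%. The calls included the chaperone genes Psmd9, Psmd5 and Psmd10 and the activator gene Psme1. The median log2 difference over the 41 genes was 0.01, and over all genes 0.00. The sizes were small, between -0.36 for Psmd5 and 0.56 for Psmd9 on the log2 scale of intensity plus 16. The split between higher and lower depended on scaling. Under quantile normalization 9 genes were higher and 4 lower, and the higher share of the calls was 69.2% in place of 41.7%, whereas centring each array on its median gave 5 and 5. Over all genes the higher share of the calls was 47.5% under quantile normalization, in place of 44.3%. Single arrays also turned the split. The lower genes numbered 3 without replicate 2 of day 1 ozone or replicate 6 of day 1 air, and 4 without replicate 1 or 6 of day 1 ozone or replicate 1, 2 or 4 of day 1 air. The higher genes numbered 7 without replicate 6 of day 1 ozone, 6 without replicate 2 of day 1 air and 5 when any other single array was left out.

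Of the 12 calls, 8 held under each of 13 other ways of processing and when any 1 of the 12 day 1 arrays was left out: Psma3, Psmd9, Psmd5, Psmc5, Psmd10, Psmd12, Psmd11 and Psmc1. The calls of Psma4, Psma5, Psmc6 and Psme1 were each lost in several of those fits, with adjusted p up to 0.138 for Psma4 without replicate 6 of day 1 ozone.

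**Figure D1:**
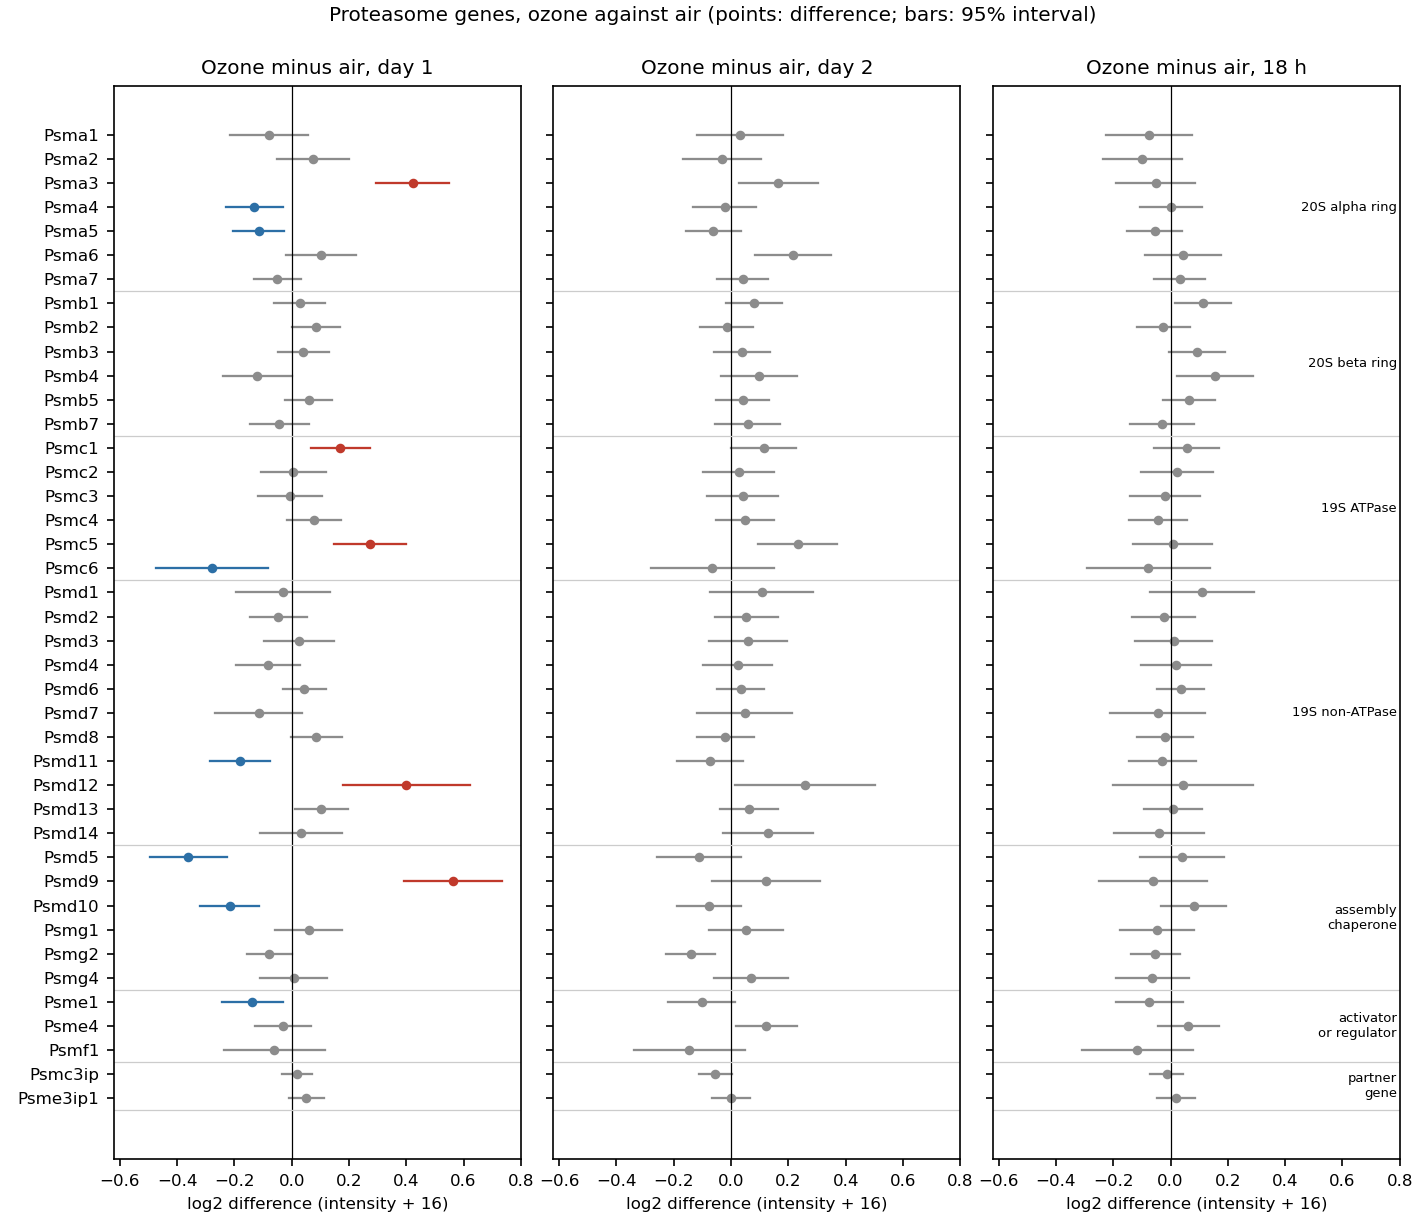
Log2 difference, ozone minus air, of intensity plus 16 for each of the 41 proteasome genes (rows, grouped by role) at the 3 harvest times, with points for the difference and bars for its 95% interval. Red marks genes higher and blue genes lower in ozone livers by limma with adjusted p below 0.05, and grey the rest: 12 genes are coloured on day 1, and 0 on day 2 and at 18 h.

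**Figure D2:**
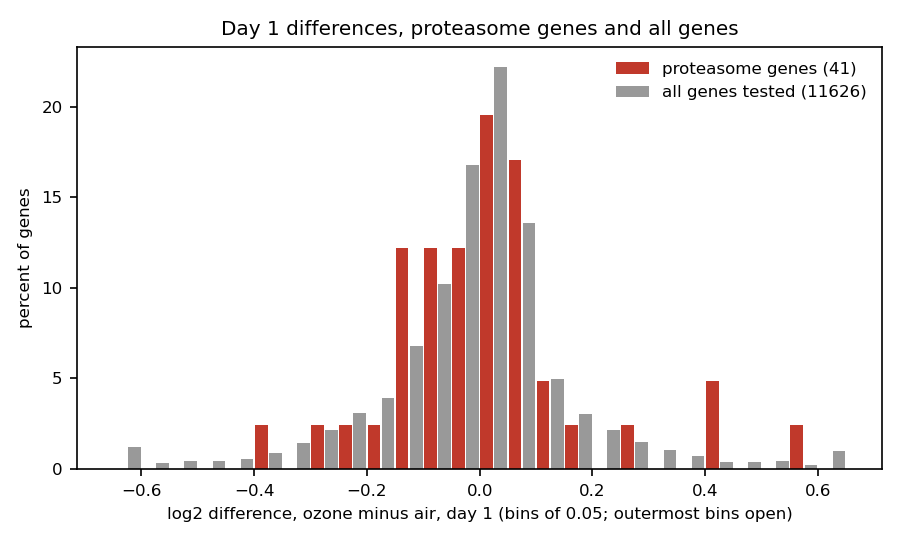
Share of genes (vertical axis, percent) in bins of 0.05 of the day 1 log2 difference, ozone minus air, for the 41 proteasome genes (red) and the 11626 genes tested (grey). Both distributions centre near 0, and the proteasome genes end at -0.36 and 0.56 while all genes reach beyond both ends.

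Among the 7 alpha ring genes on day 1, 1 was higher and 2 were lower in ozone livers. Psma3 (probe set 1368508_PM_at), which encodes a subunit of the alpha ring, read 326, 377 and 443 (lowest, median, highest of 6) in ozone livers, against 259.6, 279 and 291 in air livers. Every ozone array lay above every air array. The difference was 0.42 ± 0.06 on the log2 scale (SE), or 1.34-fold on the scale of intensity plus 16, with adjusted p = 5.36e-06 in limma. The falls of the other alpha genes were smaller and close to the threshold. Psma4 averaged 1061 ± 67.4 in ozone livers and 1161 ± 45.1 in air livers (SD, n = 6 each), a limma difference of -0.13 ± 0.05 (SE, adjusted p = 0.0436). Psma5 averaged 1297 ± 84.6 in ozone livers and 1404 ± 40.4 in air livers (SD, n = 6 each), a limma difference of -0.12 ± 0.04 (SE, adjusted p = 0.0424). The groups overlapped for both. Psma1, Psma2, Psma6 and Psma7 did not pass, with differences from -0.08 to 0.10.

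None of the 6 beta ring genes passed on day 1, and their differences ran from -0.12 to 0.08. Psmb5, which encodes the subunit with chymotrypsin-like activity, read 1624, 1758 and 1867 (lowest, median, highest) in ozone livers, against 1637, 1677 and 1721 in air livers. The limma difference was 0.06 ± 0.04 (SE, adjusted p = 0.298), with a 95% interval of -0.02 to 0.14. Psmb7, which encodes the subunit with trypsin-like activity, read 492, 519.9 and 574 in ozone livers, against 517, 545 and 558 in air livers, with a 95% interval of the difference of -0.15 to 0.06. For both catalytic genes the groups overlapped, and the intervals bound any change on this scale.

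The ATPase ring gave 2 higher genes and 1 lower gene of 6 on day 1. Psmc5 read 653, 778 and 783 (lowest, median, highest) in ozone livers, against 564, 623 and 664 in air livers. The ozone arrays lay above the air arrays apart from the lowest one, which fell below the highest air array. The difference was 0.27 ± 0.06 on the log2 scale (SE), adjusted p = 0.000993 in limma. Psmc1 averaged 679.6 ± 48.8 in ozone livers and 602 ± 18.3 in air livers (SD, n = 6 each), a limma difference of 0.17 ± 0.05 (SE, adjusted p = 0.0105). Psmc6 averaged 806 ± 78.7 in ozone livers and 986 ± 153 in air livers (SD, n = 6 each), a limma difference of -0.28 ± 0.10 (SE, adjusted p = 0.027). The direction of Psmc6 is open to the choice of probe set. Its dimmest probe set ran the other way, at 0.48 ± 0.10 (SE, adjusted p = 0.000753) in a fit over all single-gene probe sets, and the mean of its 3 probe sets differed by 0.02. Psmc2, Psmc3 and Psmc4 did not pass. A second, dim probe set of Psmc4 was higher in the fit over all single-gene probe sets, at 0.09 ± 0.03 (SE, adjusted p = 0.0226).

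Of the 11 other subunits of the regulatory particle, Psmd12 was higher and Psmd11 lower in ozone livers on day 1; both encode scaffold subunits of the lid. Psmd12 read 519, 655 and 776 (lowest, median, highest) in ozone livers, against 419, 498 and 571 in air livers. The groups overlapped, and 3 of the air arrays read 419 to 435 while the others read 561 to 571. The difference was 0.40 ± 0.11 on the log2 scale (SE), adjusted p = 0.00534 in limma, with the widest spread within groups of the 41 genes. Psmd11 averaged 1089 ± 61.6 in ozone livers and 1235 ± 60.6 in air livers (SD, n = 6 each), a limma difference of -0.18 ± 0.05 (SE, adjusted p = 0.00788). A second probe set of Psmd11 fell as well, at -0.14 ± 0.05 (SE, adjusted p = 0.0316), and another, dim one differed by 0.03. The remaining 9 genes ran from -0.11 for Psmd7 to 0.10 for Psmd13. Psmd14, which encodes the enzyme that cuts ubiquitin chains off substrates, differed by 0.03, and the ubiquitin receptor gene Psmd4 by -0.08.

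The chaperones of the regulatory particle's base held 3 of the 4 genes whose day 1 groups did not overlap, and they moved in opposite directions. Psmd9 (probe set 1368184_PM_at) read 477, 532 and 599 (lowest, median, highest) in ozone livers, against 344, 359 and 373 in air livers. The lowest ozone array lay above the highest air array by more than the whole range of the air arrays. The difference was 0.56 ± 0.08 on the log2 scale (SE), or 1.48-fold, with adjusted p = 7.51e-06 in limma. Psmd5 (probe set 1372267_PM_at) read 370.0, 393 and 458 in ozone livers, against 489.8, 511 and 566 in air livers. Its groups did not overlap, and the difference was -0.36 ± 0.07 on the log2 scale (SE) with adjusted p = 8.78e-05 in limma, so the level in ozone livers was 0.779 of that in air livers. Psmd10 (probe set 1387784_PM_at), which encodes the chaperone known as gankyrin, read 247, 262 and 266 in ozone livers, against 294, 303 and 319 in air livers. Its groups did not overlap either, and the difference was -0.22 ± 0.05 on the log2 scale (SE) with adjusted p = 0.00142 in limma. The chaperones of the core, Psmg1, Psmg2 and Psmg4, did not pass, with differences of 0.06, -0.08 and 0.01. Together with Psma3, the genes without overlap made up 9.76% of the 41, beside 16% of all genes. A second, dimmer probe set of Psmd9 differed by only 0.08 ± 0.04 (SE, adjusted p = 0.171), so the rise rests on 1 probe set.

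**Figure D3:**
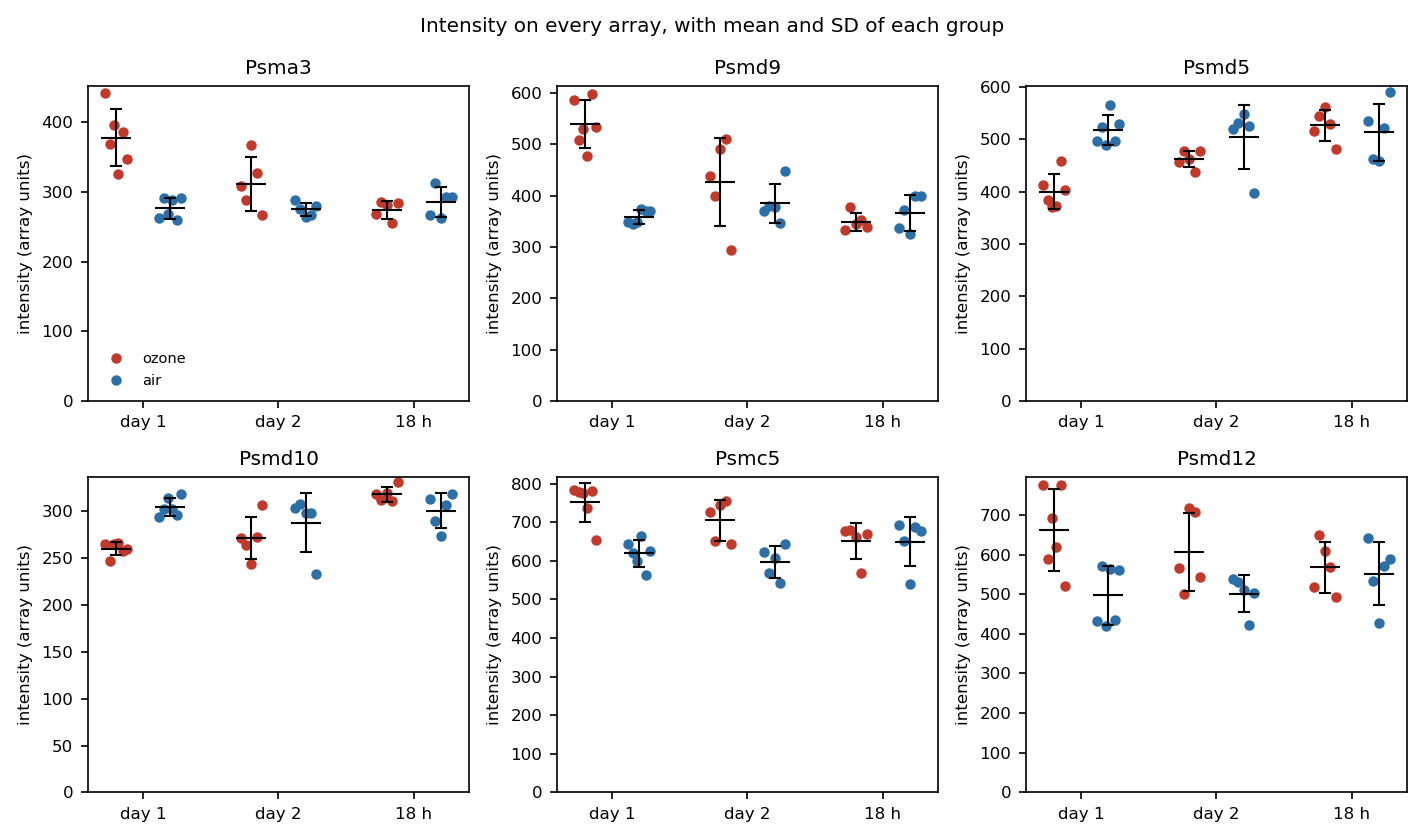
Intensity on every array (points; ozone red, air blue) with the mean and SD of each group, for Psma3, Psmd9, Psmd5, Psmd10, Psmc5 and Psmd12 at the 3 harvest times. On day 1 the ozone arrays of Psma3 (326 to 443) and Psmd9 (477 to 599) lie above all air arrays, and those of Psmd5 (370.0 to 458) and Psmd10 (247 to 266) below them.

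The stretches before the transcription start are shown for the 4 genes whose day 1 groups did not overlap, since the data bear on their expression in opposite directions. Sequences are from RefSeq, build GRCr8, 250 bases up to the start, 5′ to 3′ on the strand of the gene: chr6:95219499-95219748 (plus strand), chr12:39018265-39018514 (minus), chr3:38548491-38548740 (minus) and chrX:109453606-109453855 (minus). Capitals mark matches on either strand to TGACNNNGC, the core of the antioxidant response element to which NFE2L1 and NFE2L2 bind, and to CCAAT, the box bound by NF-Y. The windows of Psma3, Psmd9 and Psmd5 overlap the RefSeq gene record, in which another transcript starts further upstream.
Psma3: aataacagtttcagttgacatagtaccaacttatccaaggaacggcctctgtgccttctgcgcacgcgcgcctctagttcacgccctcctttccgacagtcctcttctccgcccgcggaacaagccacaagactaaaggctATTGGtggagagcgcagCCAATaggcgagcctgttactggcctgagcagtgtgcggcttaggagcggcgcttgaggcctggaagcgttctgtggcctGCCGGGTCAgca
Psmd9: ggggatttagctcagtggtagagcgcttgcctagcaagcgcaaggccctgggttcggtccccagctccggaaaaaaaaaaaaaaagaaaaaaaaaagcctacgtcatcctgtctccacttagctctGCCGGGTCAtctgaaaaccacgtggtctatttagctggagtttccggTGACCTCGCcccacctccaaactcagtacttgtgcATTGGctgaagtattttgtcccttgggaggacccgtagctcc
Psmd5: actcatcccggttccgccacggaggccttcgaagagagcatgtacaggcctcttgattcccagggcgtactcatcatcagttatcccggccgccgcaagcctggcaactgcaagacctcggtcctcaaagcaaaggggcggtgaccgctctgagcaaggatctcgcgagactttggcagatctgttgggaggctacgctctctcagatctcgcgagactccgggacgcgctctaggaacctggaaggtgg
Psmd10: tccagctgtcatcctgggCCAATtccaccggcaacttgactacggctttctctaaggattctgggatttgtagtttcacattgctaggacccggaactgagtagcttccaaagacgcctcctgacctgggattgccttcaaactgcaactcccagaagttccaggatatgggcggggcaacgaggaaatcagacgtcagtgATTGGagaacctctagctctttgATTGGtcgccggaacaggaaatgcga
The antioxidant core stood once in the window of Psma3 and 2 times in that of Psmd9, the genes that were higher, and in neither window of the genes that were lower. CCAAT stood 2 times for Psma3, 1 time for Psmd9, 3 times for Psmd10 and not at all for Psmd5. No match of one motif overlapped a match of the other. Over the 37 proteasome genes with a RefSeq window, the antioxidant core was present in 6 (16.2%), beside 10.1% of the 33469 windows searched. It was present in 2 of the 4 higher genes with a window, in 0 of the 7 lower genes and in 4 of the 26 genes that did not pass. CCAAT was present in 19 of the 37 (51.4%), beside 34% of all windows. A match is a run of letters and not a shown binding site.

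Among the activators and regulators, Psme1 was lower in ozone livers on day 1. It encodes a subunit of the activator PA28, which opens the core without ATP. Psme1 read 2033, 2175 and 2401 (lowest, median, highest) in ozone livers, against 2285, 2390.3 and 2501 in air livers. The groups overlapped, and the limma difference of -0.14 ± 0.05 (SE, adjusted p = 0.0457) lay near the threshold. In the fit over all single-gene probe sets its adjusted p was 0.0573. A second, dim probe set of Psme1 ran the other way in that fit, at 0.11 ± 0.05 (SE, adjusted p = 0.101). Psme4, which encodes the activator PA200, read 648, 736 and 767 in ozone livers, against 702, 738 and 799 in air livers, a difference of -0.03 ± 0.05 (SE, adjusted p = 0.688) in limma. A dimmer probe set of Psme4 was higher, at 0.22 ± 0.05 (SE, adjusted p = 0.00229). Psmf1, which encodes the regulator PI31, read 729.8, 776 and 815 in ozone livers, against 725, 816 and 883 in air livers, a difference of -0.06 ± 0.09 (SE, adjusted p = 0.644) in limma. The partner genes Psmc3ip and Psme3ip1 differed by 0.02 and 0.05 and did not pass.

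On day 2 none of the 41 genes passed the test in limma, beside 0.705% of all genes. All 12 genes called on day 1 differed in the same direction on day 2, beside 80% of all genes called on day 1, and all 12 by a smaller size, beside 96.6%, counts that were not tested. The arrays of these 2 times are separate. At an unadjusted p below 0.05, 7 of the 41 differed, 17.1% beside 13% of all genes: Psmc5, Psma6, Psma3, Psme4, Psmd12 and Psmc1 above 0, and Psmg2 below. Psmc5 read 725, 652, 746, 756 and 645 in ozone livers, against 623, 569.8, 607, 543 and 644 in air livers. These groups did not overlap, the only such case among the 41 genes (2.44%, beside 1.49% of all genes), and the limma difference was 0.23 ± 0.07 (SE, adjusted p = 0.0811). Psmd9 read 439, 399, 491, 509.9 and 295 in ozone livers, against 370.4, 381, 378, 348 and 449 in air livers. The last array of each group, replicate 5, gave the lowest ozone and the highest air value, and the difference was 0.12 ± 0.09 (SE, adjusted p = 0.682) in limma. Psmd10 showed the mirror image, with 271, 265, 243, 272 and 306 in ozone livers, against 303, 308, 299, 298 and 233 in air livers, and a limma difference of -0.08 ± 0.06 (SE, adjusted p = 0.654). Psma3 read 309, 289, 368, 327 and 267 in ozone livers, against 288, 276, 264, 268 and 279 in air livers. Of these ozone arrays 4 lay above every air array, and 1 within their range.

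The day 2 result rests on a few arrays. Without replicate 5 of day 2 air, of day 2 ozone and of 18 h air, 10 of the 41 genes passed on day 2, beside 13.2% of all genes. Psmd9 differed by 0.30 ± 0.07 (SE, adjusted p = 0.00376), Psmc5 by 0.29 ± 0.07 (SE, adjusted p = 0.00745) and Psma6 by 0.28 ± 0.07 (SE, adjusted p = 0.00635) in that limma fit, and Psma3 and Psme4 were also higher. Psmd5 differed by -0.20 ± 0.06 (SE, adjusted p = 0.022) and Psmd10 by -0.19 ± 0.04 (SE, adjusted p = 0.00133), and Psme1, Psmf1 and Psmg2 were also lower. Leaving out replicate 5 of day 2 air alone gave 5 calls (beside 8.41% of all genes), and replicate 5 of day 2 ozone alone 3 (beside 4.35%). Over all genes, the day 2 calls numbered from 1 to 978 when single arrays were left out, and 82 with all arrays. The arrays left out lay far from their labelled group, and they were chosen with earlier results of these data known. Distance alone does not give this choice. Replicate 1 of day 2 air was kept, though it correlated with its own group's mean at 0.02 and with the day 1 air mean at 0.68. Leaving out arrays in this way by itself tends to widen the gaps.

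The catalytic, activator and regulator genes that did not pass on day 2 had intervals around 0 or close to it. Psmb5 averaged 1695 ± 60.5 in ozone livers and 1649 ± 79.0 in air livers, and Psmb7 averaged 535 ± 18.5 in ozone livers and 515 ± 41.7 in air livers (SD, n = 5 each). Their 95% intervals were -0.05 to 0.13 and -0.05 to 0.17. The groups overlapped for both. Psme1 averaged 2045 ± 68.5 in ozone livers and 2205 ± 205 in air livers, with an interval of -0.22 to 0.01. Psme4 averaged 801 ± 49.4 in ozone livers and 735 ± 58.7 in air livers, with an interval of 0.02 to 0.23. Psmf1 averaged 689 ± 70.2 in ozone livers and 768 ± 119 in air livers, with an interval of -0.34 to 0.05. Of these 5 genes, Psme4 had an interval that lay above 0, at an unadjusted level only.

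At 18 h after the second exposure none of the 41 genes passed, beside 1.17% of all genes, and the groups of none were free of overlap, beside 2.76% of all genes. Without the 3 replicates named above the count was again 0, beside 2.05% of all genes. At an unadjusted p below 0.05 (12.1% of all genes), Psmb4 and Psmb1 were the 2 genes that differed, by 0.16 ± 0.06 and 0.11 ± 0.05 (SE), both higher in ozone livers. For both, replicate 5 of 18 h ozone read highest in its group (2566 and 2232) and replicate 3 of 18 h air lowest in its own (1666 and 1709.5). These arrays had the highest and the lowest actin ratio of all, and the part of RNA integrity was not tested. Psmd9 read 333, 378, 345, 352 and 339 in ozone livers, against 337, 372, 326, 399 and 399.9 in air livers, with a 95% interval of the difference of -0.25 to 0.13. Psma3 read 268, 285, 281, 255 and 283 in ozone livers, against 267, 313, 262, 293 and 293 in air livers, with an interval of -0.19 to 0.09. The groups overlapped for both genes. Of the 12 genes called on day 1, 7 kept their sign at 18 h, beside 40.5% of all genes called on day 1. Psmd5 read 516, 545, 561, 529 and 482 in ozone livers, against 534, 463, 459, 521 and 591 in air livers, with an interval of -0.11 to 0.19. Psmd10 read 318, 312, 319, 311 and 331 in ozone livers, against 313, 290.0, 274, 307 and 319 in air livers, with an interval of -0.03 to 0.19. The catalytic genes Psmb5 and Psmb7 differed by 0.07 and -0.03, and Psme1, Psme4 and Psmf1 by -0.07, 0.06 and -0.12; none passed. Without replicate 5 of 18 h air, Psme1 differed by -0.03 and Psmf1 by -0.02.

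The difference between the ozone effects at 2 times was tested directly. From day 1 to 18 h, the effect changed for 6 of the 41 genes, 14.6% beside 20.4% of all genes. It was lower at 18 h for Psmd9, at -0.63 ± 0.13 (SE, adjusted p = 0.000582), for Psma3, at -0.47 ± 0.09 (SE, adjusted p = 0.000401), and for Psmc5, at -0.26 ± 0.09 (SE, adjusted p = 0.0375), all in limma. It was higher at 18 h for Psmd5, at 0.40 ± 0.10 (SE, adjusted p = 0.00328), for Psmd10, at 0.30 ± 0.08 (SE, adjusted p = 0.00473), and for Psmb4, at 0.28 ± 0.09 (SE, adjusted p = 0.0235). For these genes other than Psmb4 the day 1 difference had passed and the 18 h difference lay between -0.06 and 0.08. Psmb4, which encodes a beta subunit without catalytic activity, had differences of 0.16 at 18 h and -0.12 on day 1, neither of which passed. The Psmc5 call was lost in 11 of the 22 fits that left out 1 array, with adjusted p up to 0.0903 without replicate 4 of 18 h ozone, and in 3 of 13 other ways of processing, with adjusted p of 0.0523 without replicate 5 of day 2 air, day 2 ozone and 18 h air. The Psmb4 call was lost without replicate 5 of 18 h ozone or replicate 3 of 18 h air, with adjusted p of 0.0625 and 0.0631. Its arrays read 1966 to 2566 in 18 h ozone livers, 1666 to 2179.7 in 18 h air livers, 1815 to 2100.3 in day 1 ozone livers and 1991 to 2196 in day 1 air livers. Between day 2 and day 1 the effect changed for Psmd9 alone, at -0.44 ± 0.13 (SE, adjusted p = 0.0346) in limma, 2.44% of the 41 beside 5.09% of all genes. That call was lost in 6 of the 22 fits that left out 1 array (replicate 5 of day 1 ozone, 2 or 3 of day 1 air, 2 or 5 of day 2 ozone, or 5 of day 2 air), with adjusted p up to 0.0817 without replicate 5 of day 2 air, and the count was 0 when replicate 5 of day 2 air, day 2 ozone and 18 h air were left out together. There were 2 calls without replicate 4 of day 1 ozone or replicate 3 of day 2 ozone. Between 18 h and day 2 it changed for none, beside 0.0086% of all genes, and for 2 at an unadjusted p below 0.05, beside 8.69%. The number of calls was 1 without replicate 5 of day 2 air (beside 1.86% of all genes) and 3 without the 3 replicates together (beside 8.59%). The ozone effect comparisons share the day 1 or day 2 arrays, so they are not separate evidence.

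**Figure D4:**
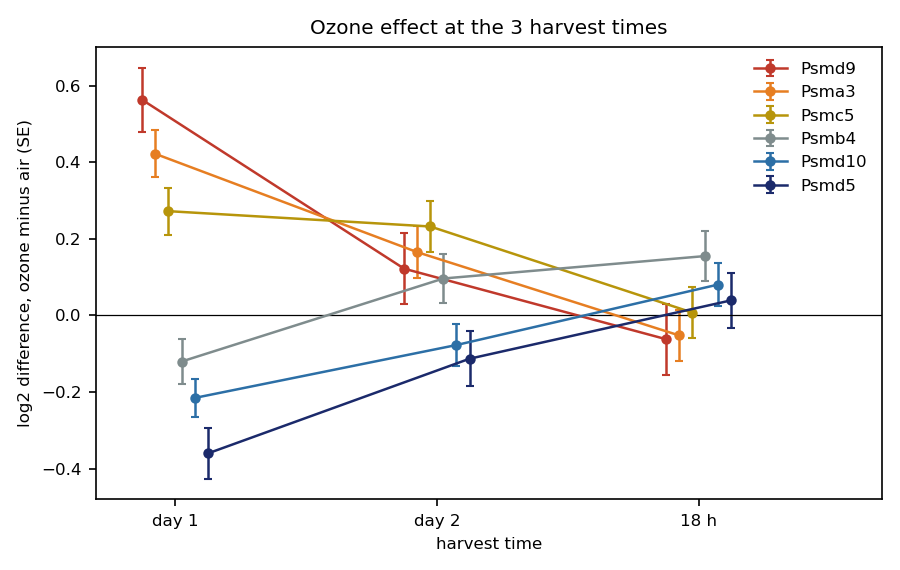
Log2 difference, ozone minus air, with its SE at the 3 harvest times (end of day 1, end of day 2, 18 h after day 2) for the 6 genes whose ozone effect changed between day 1 and 18 h. The lines of Psmd9, Psma3 and Psmc5 start at 0.56, 0.42 and 0.27 and those of Psmd5 and Psmd10 at -0.36 and -0.22, and all 5 end between -0.06 and 0.08.

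Within the ozone livers, 4 genes differed between day 2 and day 1, 9.76% beside 14.5% of all genes. Psmd9 was lower on day 2, at -0.35 ± 0.09 (SE, adjusted p = 0.00743), as were Psma3, at -0.27 ± 0.06 (SE, adjusted p = 0.00554), and the lid subunit gene Psmd8, at -0.15 ± 0.05 (SE, adjusted p = 0.0224). Psmd5 was higher on day 2, at 0.21 ± 0.07 (SE, adjusted p = 0.0416), all in limma. The Psmd8 and Psmd5 calls were lost in 5 and 8 of the 11 fits that left out 1 array, with adjusted p up to 0.0786 and 0.105, both without replicate 5 of day 2 ozone. Without that replicate Psmd9 differed by -0.23 (adjusted p = 0.0412). When only the ozone groups of day 1 and day 2 were fitted, the Psmd9 and Psma3 calls were lost, with adjusted p of 0.0625 and 0.0524. The count was 2 without replicate 3 of day 1 ozone or replicate 1 or 2 of day 2 ozone. Psmd8 read 1222, 1239, 1378, 1405 and 1233 in day 2 ozone livers, against 1325, 1426 and 1574 (lowest, median, highest) in day 1 ozone livers. Between 18 h and day 2 in ozone livers, Psmd10 was higher at 18 h, at 0.22 ± 0.06 (SE, adjusted p = 0.00946), the 1 call of 41 (2.44%, beside 11.3% of all genes). Without replicate 5 of day 2 ozone there were 4 calls (beside 17% of all genes), without replicate 2 of day 2 ozone or replicate 4 or 5 of 18 h ozone 2 (beside 8.6%, 8.7% and 8.51%), and without the 3 replicates together 5 (beside 19.4%). In air livers none passed between day 2 and day 1 (beside 0.0086% of all genes) or between 18 h and day 2 (beside 0.12%), with 2 and 3 genes at an unadjusted p below 0.05 (4.88% and 7.32%, beside 6.66% and 9.41% of all genes). The small differences in air livers leaned one way: 35 of the 41 genes read lower on day 2 than on day 1 (85.4%, beside 44.9% of all genes, and a median of -0.05, beside 0.01), and 32 of 41 (78%) read higher at 18 h than on day 2, beside 46.9% of all genes. Both of these comparisons share the day 2 air arrays, which include the replicate that lay nearest to the day 2 ozone mean. The 41 genes' mean deviation from their means over all arrays was -0.11 and -0.08 on replicates 5 and 4 of day 2 air. On the other day 2 air arrays it was -0.02 to 0.01. The genes vary together from array to array, so these counts are not counts of independent genes.

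Proteasome genes varied together from array to array once the group means had been removed. Over the 820 pairs of the 41 genes, the median Pearson correlation of the deviations across 32 arrays was 0.31, and 82.9% of pairs lay above 0. Over all pairs of genes tested the median was 0.03, and 53.2% lay above 0. The points share the arrays, their scaling and their RNA quality, so the correlations are given as a description. The closest pair was Psmd1 and Psmd3 (0.89), which encode large subunits of the regulatory particle, followed by Psmc2 and Psmd4 (0.87) and Psmb1 and Psmb4 (0.84). Psmd14, Psmc5 and Psma4 had the highest median correlation with the other 40 genes (0.54, 0.51 and 0.50). Psmc3ip, Psmg2 and Psme3ip1 had the lowest (-0.17, -0.06 and -0.004), so both partner genes and the chaperone gene Psmg2 stood outside the shared pattern. Psmc3ip and Psme3ip1 were also the dimmest of the 41 genes and had the smallest spread within groups (SD 0.041 and 0.046). The part of background in their low correlations was not tested. Psmd9 went with Psma3 (0.69), and its correlation with Psmd10 was -0.46. Without replicate 5 of day 2 air, day 2 ozone and 18 h air, a choice made after the data were seen, Psmd9 and Psmd10 were at 0.04 and Psmd9 and Psma3 at 0.67, and the median of all pairs was 0.32.

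**Figure D5:**
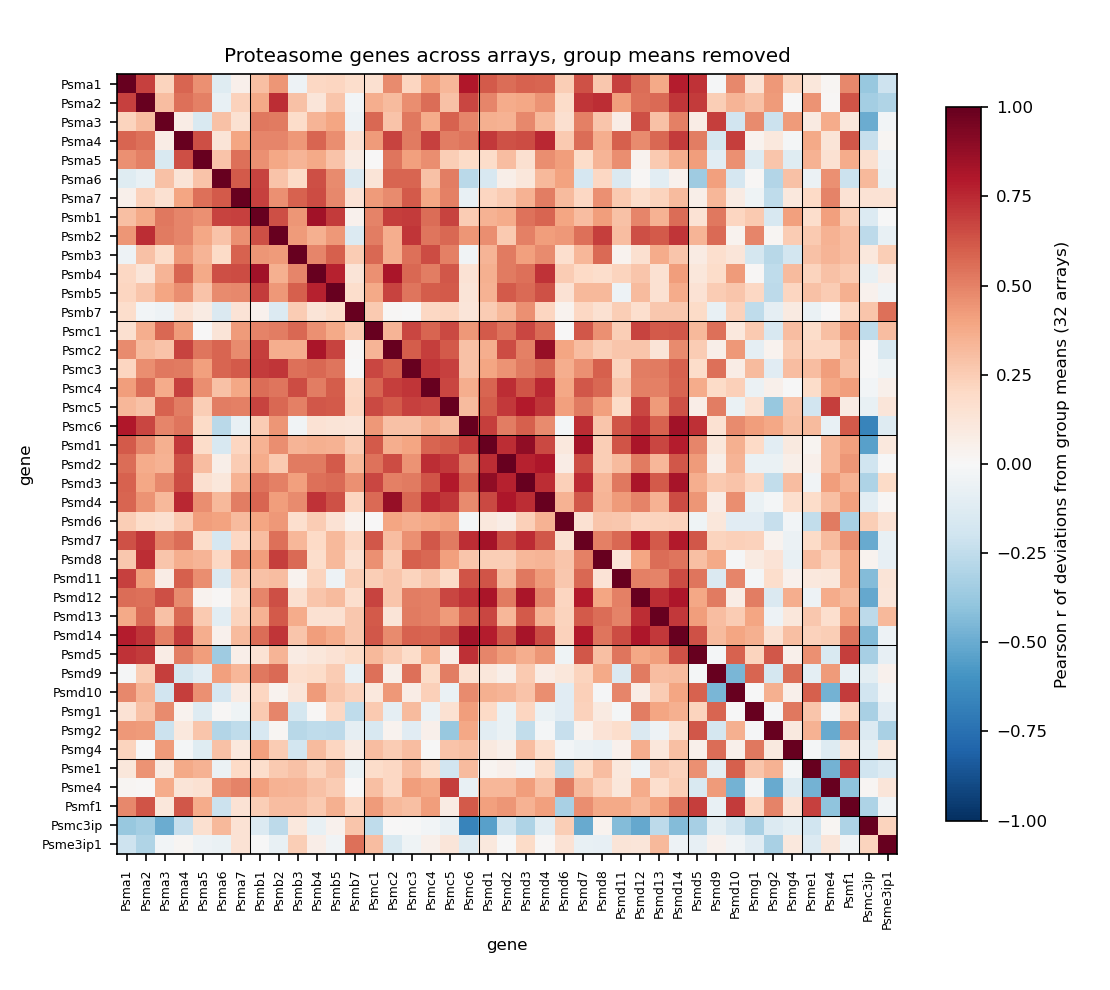
Pearson correlation across 32 arrays between the 41 proteasome genes (rows and columns in the order of their roles, black lines between role groups) of deviations of log2(intensity + 16) from the group means. Most of the core and regulatory particle is red (median of all pairs 0.31), and the rows of the partner genes Psmc3ip and Psme3ip1 at the lower edge are pale or blue.

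Some genes that feed and control the proteasome also differed on day 1. Of 11 genes for control of proteasome expression, 2 were higher and 2 lower, where 13.1% of all genes tested were higher and 16.4% lower. The lists are short and were not tested as sets, so their counts do not set them apart from all genes. Nfe2l2 read 368, 414 and 499 (lowest, median, highest) in ozone livers, against 532, 622 and 662 in air livers. These groups did not overlap, and the limma difference was -0.53 ± 0.12 (SE, adjusted p = 0.00147). Keap1, whose product holds NFE2L2 back, differed by -0.28 ± 0.05 (SE, adjusted p = 4.42e-05), Nfyc, a subunit of NF-Y, by 0.20 ± 0.04 (SE, adjusted p = 6.32e-05) and Mafk, a partner of both NFE2L factors, by 0.18 ± 0.04 (SE, adjusted p = 0.000937). Nfe2l1 did not pass, at 0.03 ± 0.03 (SE, adjusted p = 0.564), and its arrays read 149 to 171 in ozone livers and 147 to 166 in air livers. These values lay near the median intensity of an array (147 to 161), where background in the values makes differences too small. The result therefore does not show that Nfe2l1 was unchanged. On day 2 none of the 11 passed, beside 0.705% of all genes. Without the 3 replicates named above Nfe2l2 was lower in ozone livers, at -0.64 ± 0.11 (SE, adjusted p = 8.67e-05 in limma). At 18 h Nfe2l2 was higher in ozone livers, with 787, 880.1, 974, 795 and 732, against 702, 576, 480.3, 506 and 630.2 in air livers, and a limma difference of 0.52 ± 0.14 (SE, adjusted p = 0.0496). Every ozone array at that time lay above every air array, and without those 3 replicates the difference was 0.55 ± 0.10 (SE, adjusted p = 0.00439). The change of the Nfe2l2 effect from day 1 to 18 h was 1.05 ± 0.18 (SE, adjusted p = 0.000172).

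The day 1 counts of the remaining lists stand beside 29.5% of all genes that passed, 13.1% higher and 16.4% lower. Of 8 shuttle and extraction factors tested on day 1, Ufd1 was higher, at 0.34 ± 0.05 (SE, adjusted p = 4.58e-06), as was Ubqln2, at 0.16 ± 0.05 (SE, adjusted p = 0.0169). Vcp, whose product works with that of Ufd1 to pull ubiquitylated proteins out of complexes, was lower, at -0.16 ± 0.04 (SE, adjusted p = 0.00617) in limma. Of 12 factors that bind or build the particle, Txnl1 was lower, at -0.32 ± 0.09 (SE, adjusted p = 0.00505), as was Fbxo7, at -0.12 ± 0.03 (SE, adjusted p = 0.00838), and 0 were higher. Of the 2 ubiquitin-activating enzyme genes tested, Uba6 was lower, at -0.23 ± 0.04 (SE, adjusted p = 3.19e-05). None of the 3 immunoproteasome genes passed on day 1 or day 2, when 29.5% and 0.705% of all genes passed. In the fit without the 3 replicates, 13.2% of all genes passed on day 2. Without the 3 replicates all 3 were lower in ozone livers on day 2, by limma differences of -0.47 ± 0.09 for Psmb8 (SE, adjusted p = 0.000361), -0.75 ± 0.13 for Psmb9 (SE, adjusted p = 0.000173) and -0.31 ± 0.10 for Psmb10 (SE, adjusted p = 0.0387). The summed Kupffer cell and macrophage markers ranged on day 2 from 3679 to 5231 in ozone livers and from 4285 to 7143 in air livers, with 1 of 9 lower in ozone livers in the fit of all arrays, and their part in these differences was not tested. At 18 h Psmb8, whose product replaces that of Psmb5 in the immunoproteasome, read 1300.0, 1394, 1315, 1139 and 1179.7 in ozone livers, against 1283, 1761, 1626, 1824 and 2477 in air livers. The Psmb8 difference was -0.47 ± 0.11 (SE, adjusted p = 0.0321) in limma, and 1 air array lay within the ozone range. Without the 3 replicates it was -0.35 ± 0.08 (SE, adjusted p = 0.0254). Psmb8 was the 1 gene of these 3 that passed at 18 h, beside 1.17% of all genes. Without the 3 replicates Psmb9 differed at 18 h by -0.25 ± 0.12 (SE, adjusted p = 0.402 in limma). Psmb10 differed by 0.04 ± 0.10 (SE, adjusted p = 0.946) in the same fit. The summed Kupffer cell and macrophage markers ranged at that time from 4100.3 to 5308 in ozone livers and from 5448 to 6097 in air livers, and their part in the Psmb8 difference was not tested.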

How the data were processed

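Total liver RNA was hybridised as biotin-labelled cRNA to Affymetrix HT-Rat-230 PM arrays, per the labels' protocols. The authors summarised probes to linear probe set intensities by the PLIER method, and the submitters' processing notes name Affymetrix Expression Console. How background was corrected and arrays were scaled is not given in the sources used here. Background left in the values makes fold changes of dim genes too small. No value was rescaled for the reported fit.

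The deposited intensities held 31139 probe sets. Left out were 97 control sets, 11407 sets without a gene and 572 with several genes in the platform annotation. Sets whose mean of log2(intensity + 16) lay below the 25th percentile were removed and the brightest set per gene was kept, which gave 11626 genes. Groups and replicate numbers came from the sample titles. Two-sided tests used limma 3.58.1 under R 4.3.3, with lmFit and a trended eBayes, from a single fit of 6 group means to 32 arrays, with Benjamini-Hochberg adjustment over all genes and a threshold of 0.05. SE and 95% intervals come from limma, and the number of arrays limits the precision. Scripts were tested on simulated data. Figures used Python 3.11.15 and matplotlib 3.10.9.

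The proteasome genes, the lists of other pathway genes the markers and the arrays left out together were chosen with earlier results of these data known. Named were, by rule, the members past the threshold in each ozone minus air comparison (up to 12), up to 5 in every other comparison, and the catalytic, activator and regulator genes, with up to 4 genes from each pathway list. Psmb1, Psma6 and Psmg2 at later times, Psmc5 in the change from day 1 to 18 h, genes given as not passing in each role group, Nfe2l1, Psmb9, Psmb10, second probe sets and the correlated pairs were named after their values were seen. Same-numbered ozone and air arrays deviated from their group means with correlations of -0.58 to 0.26, so the numbers were not taken to pair the samples. Alternatives covered the offset, the filter, scaling, probe set choice, spread estimate, the arrays in the fit, a replicate block and each array left out. Some listed genes are not reported here. Promoter windows were matched to 37 of the 41 genes by gene ID.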

Additional observations from a re-analysis of the deposited data

Results flagged for a closer look

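In 9 of the 108 sets of values looked at (18 genes in 6 groups), 1 array stood apart from the others of its group by Dixon's test, which flags about 1 in 20 sets by chance. Replicate 5 of day 2 air was lowest for Psmd5, at 398 while the others read 519.9 to 548, and for Psmd10, at 233 while the others read 298 to 308. Replicate 6 of day 1 ozone was lowest for Psmc5 (653) and Psme4 (648). Replicate 4 of 18 h ozone was lowest for Psmc5 (568), and replicate 3 of 18 h air for Psmc5 (539) and Psmc6 (806). Replicate 4 of day 2 air was lowest for Psmd12 (423). Replicate 3 of day 2 ozone was highest for Psmb7 (567).

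The ozone effect itself changed between day 1 and 18 h for 6 genes in limma's test of the difference, 14.6% beside 20.4% of all genes. At 18 h it was lower than on day 1 for Psmd9 (-0.63), Psma3 (-0.47) and Psmc5 (-0.26, a call that 11 of the 22 fits without 1 array lost) and higher for Psmd5 (0.40), Psmd10 (0.30) and Psmb4 (0.28). On day 2 it was lower than on day 1 for Psmd9 (-0.44), a call that several other fits lost (2.44% beside 5.09% of all genes).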

How the results depend on the processing

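Left out one at a time, the arrays gave 8 to 11 day 1 calls (12 with all arrays), 5 to 6 changes of the ozone effect between day 1 and 18 h (6), 0 to 2 between day 1 and day 2 (1), and 0 to 1 between day 2 and 18 h (0, with 1 without replicate 5 of day 2 air). Day 2 gave 0 to 5 calls (0, with 5 without replicate 5 of day 2 air), ozone livers on day 2 against day 1 gave 2 to 5 (4), and ozone livers at 18 h against day 2 gave 1 to 4 (1, with 4 without replicate 5 of day 2 ozone). Over all genes these fits gave 3087 to 3499 calls on day 1 (3430) and 1 to 978 on day 2 (82). The effect changed for 2056 to 2415 genes between day 1 and 18 h (2368). It changed for 295 to 892 between day 1 and day 2 (592), and for 0 to 216 between day 2 and 18 h (1). Ozone livers gave 1048 to 1724 on day 2 against day 1 (1686) and 645 to 1978 at 18 h against day 2 (1310). Without replicate 5 of day 2 air, day 2 ozone and 18 h air together, or those and replicate 1 of 18 h air, day 2 gave 10 calls in both fits, the change from day 1 to day 2 gave 0, that from day 2 to 18 h gave 3, and ozone livers at 18 h against day 2 gave 5 and 6. Without the 3 replicates these counts stand beside 13.2%, 2.25%, 8.59% and 19.4% of all genes, in that order. Array quality weights gave 9 calls on day 2, 2 for the change from day 1 to day 2, 5 for that from day 2 to 18 h, 1 for air livers at 18 h against day 2, and 7 and 6 for ozone livers on day 2 against day 1 and at 18 h against day 2. Quantile normalization gave 2 for the change from day 1 to day 2, 11 for that from day 1 to 18 h and 8 for ozone livers on day 2 against day 1. Fitting the compared groups alone gave 0 for the change from day 1 to day 2, 1 for ozone livers on day 2 against day 1 and 2 at 18 h against day 2, which was also 2 with the 50th percentile filter and without the intensity trend. With the replicate number as a block, the change from day 1 to day 2 gave 0 and day 1 gave 9, and no other count of calls moved by over 1.5 times. For fits with weights, quantile normalization, compared groups alone, another filter, no trend or a block, shares of all genes that passed are not given. Their counts therefore do not set the proteasome genes apart from all genes. Causes were not tested. Signs turned for Psmc6 on day 1 (0.0200, mean of its probe sets), for Psme4 on day 1 and at 18 h (0.0407 and -0.0270, likewise), and for Psmb7 at 18 h (0.0317 with 4 arrays left out). One at a time, the arrays gave -0.0458 to 0.00298 for Psme4 on day 1, positive without replicate 6 of day 1 ozone, and -0.0788 to 0.00727 for Psmb7 at 18 h, positive without replicate 1 of 18 h air. Of the differences of single genes recomputed, 887 kept sign and side of the threshold, 92 calls were lost, 9 were gained and 6 signs turned. The offset, median centring and the absence of a filter moved no count of calls by over 1.5 times. Array number and background signal limit precision, most for dim genes such as Psmc3ip.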

Other observations

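Psmd12 and Psmc6, which encode a lid subunit and an ATPase of the regulatory particle, showed the same uneven spread over the day 1 arrays (correlation of their deviations from the group means over 32 arrays 0.72), and this was noticed after the values were seen. In ozone livers Psmd12 read 776, 589, 693, 618, 775 and 519 for replicates 1 to 6, against 431, 571, 419, 565, 435 and 561 in air livers. In ozone livers Psmc6 read 941, 711, 805, 755, 834 and 789 for replicates 1 to 6, against 874, 1083, 825, 1145, 848 and 1142 in air livers. Replicates 2, 4 and 6 of day 1 air read above replicates 1, 3 and 5 for both genes, while among the ozone arrays these replicates read below. The pattern was not particular to this pair, though not all genes showed it. Psmd1, Psmd7 and Psmd14 split the same way, as did Uchl5, Ecpas and Syvn1 among the other pathway genes. Psmd14 read 741, 709, 749, 712, 799 and 666 for replicates 1 to 6 in ozone livers, against 696, 730, 639, 810, 644 and 765 in air livers. The labels used here give no batch or order that sets these replicates apart, and the pattern was not tested.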
